A study of Mus musculus with 19 samples.

Results

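Genes of the Hsp70 and Hsp90 chaperones and of the mitochondrial chaperonin were followed across 19 arrays of RNA from pooled dendrites of mouse hippocampal neurons. The list was fixed by name and held 10 genes, namely Hsp90aa1, Hsp90ab1, Hsp90b1, Hspa8, Hspa5, Hspa4, Hspa9, Hspa1b, Hspd1 and Hspe1, and each was read at the level of its probe sets and as the median of them. For 9 of the 10 genes at least 1 probe set carried that gene's symbol alone, and these 9 genes had 29 probe sets among the 45037 probe sets on the array that were not controls, which stood for 18193 genes. Hsp90ab1, the constitutive cytosolic Hsp90, was not analysed here. The pools came from primary cultures of E18 embryos, kept for 14 days without treatment, of the inbred mouse strains Balb/c (5 pools) and C57BL/6 (14 pools). The Balb/c pools held 100 dendrites (2 pools), 200 (1 pool) or 400 (2 pools), and the C57BL/6 pools held 100 (4 pools), 200 (5 pools) or 400 (5 pools). Dendrites were cut by glass pipette from several cells of a culture, axons could not be told from dendrites by their shape, so that the pools may hold some, and the RNA went through several rounds of amplification before it was labelled. The sources used here do not say whether the pools of 1 strain had separate cultures or embryos behind them. The p-values therefore measure the spread between pools, part of which may be technical. An array's name gives its strain, its number of dendrites and its replicate, as in Balb/c 200-1 for replicate 1 of the pools of 200 Balb/c dendrites.

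Chaperones of the Hsp70 family bind short exposed stretches of unfolded proteins and release them in a cycle of ATP hydrolysis that J-domain proteins and nucleotide exchange factors drive. Hsp90 chaperones act later, on near-native clients such as kinases and steroid hormone receptors, with a set of co-chaperones. Each compartment has its own members: Hspa8 (Hsc70) and Hsp90aa1 in the cytosol, Hspa5 (BiP) and Hsp90b1 (Grp94) in the endoplasmic reticulum, and Hspa9 (mortalin) in mitochondria, where Hspd1 (Hsp60) and Hspe1 (Hsp10) form the chaperonin, which belongs to neither family. In neurons, Hsc70 also strips clathrin from endocytosed vesicles, and messenger RNAs of several chaperones are known to reach dendrites.

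Some of these genes are known to be induced together, by heat shock factor through inverted repeats of the unit GAA, or in the endoplasmic reticulum by the ER stress response element, and the promoter stretches that hold such letters are shown here because the genes of a compartment are compared further on. RefSeq promoter windows of 300 bases, from 250 before to 50 after a start site (build GRCm38.p6), were matched for 6 of the 10 listed genes by symbol, Hsp90b1, Hspa5, Hspa4, Hspa1b, Hspd1 and Hspe1. Hsp90aa1, Hsp90ab1, Hspa8 and Hspa9 were not matched. Capitals mark the matched letters, and each stretch reads 5′ to 3′ on the strand of its gene. The letters GAANNTTC or TTCNNGAA, each its own reverse complement, were found in windows of 3 listed genes, against 15.1% of all 32851 windows. Joined into 3 units (GAANNTTCNNGAA or TTCNNGAANNTTC, both strands) they were in windows of Hspd1 and Hspe1, against 0.603% of all windows. These genes start on opposite strands of chromosome 1, and 1 of the 2 Hspd1 windows shared 285 bases with the Hspe1 window, so their stretches at chr1:55088039-55088096 are the same bases read from either strand. The stretch of Hspe1 is on the plus strand, and that of Hspd1 on the minus strand. Hspa1b (chr17:34959315-34959362, minus strand) held 1 match, and the window of its near copy Hspa1a was identical to it at 296 of 300 bases. The ER stress response element, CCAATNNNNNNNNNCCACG on either strand, was in 0.119% of all windows, and among the listed genes in those of Hspa5 (chr2:34772005-34772063, plus strand) and Hsp90b1. Hsp90b1 held it 2 times, at chr10:86705618-86705676 on its own (minus) strand and at chr10:86705513-86705571 as the reverse complement. No search matched in the Hspa4 window. These matches are letters in a window and were not measured as binding sites.
Hspe1: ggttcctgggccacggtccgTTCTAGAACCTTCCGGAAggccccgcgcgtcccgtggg
Hspd1: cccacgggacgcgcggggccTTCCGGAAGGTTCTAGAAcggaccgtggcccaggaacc
Hspa1b: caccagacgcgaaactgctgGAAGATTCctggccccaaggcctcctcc
Hspa5: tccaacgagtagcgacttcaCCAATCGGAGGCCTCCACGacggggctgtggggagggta
Hsp90b1, first match: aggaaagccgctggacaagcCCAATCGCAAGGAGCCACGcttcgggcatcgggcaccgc
Hsp90b1, second match: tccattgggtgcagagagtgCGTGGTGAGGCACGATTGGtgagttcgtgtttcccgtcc

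Most of the listed chaperones were lower in the Balb/c pools. Of the 9 genes measured, 7 were lower in Balb/c and 0 were higher (limma, adjusted p under 0.05 by Benjamini-Hochberg over 18193 genes). The genes that did not pass were Hspa4 and Hspa1b. Over all genes, 11.4% were called lower and 21.1% higher. Each difference is the Balb/c mean less the C57BL/6 mean in log2 units, from which that of the median gene, 0.216 in favour of Balb/c, was taken off. The tests used the deposited values without this shift. The median difference of the 9 genes was -2.14, against 0 over all genes by construction. The strains overlapped in every one of the 9 genes, so that 0 of 9 had all Balb/c arrays below all C57BL/6 arrays, against 0.418% of all genes. In bulk RNA, a smaller share of a cell type and less RNA per cell cannot be told apart.

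Some arrays lay nearer to the other strain than the rest did. Balb/c 200-1 had a mean correlation of 0.678 with the other Balb/c arrays and of 0.782 with the C57BL/6 arrays over all genes. For C57BL/6 200-1 these were 0.781 and 0.757, for C57BL/6 400-1 they were 0.722 and 0.779, and for Balb/c 400-2 they were 0.775 and 0.72. The mean level of the 9 chaperones ran from 6.1 (Balb/c 100-2) to 7.69 (Balb/c 200-1) in Balb/c and from 7.5 (C57BL/6 200-1) to 9.15 (C57BL/6 400-2) in C57BL/6. Leaving out Balb/c 200-1, C57BL/6 200-1 and C57BL/6 400-1 widens the strain difference by the way they were picked, with 7926 genes called in all against 5910, and the 7 calls there are no check on these results. The columns of Balb/c 100-2 and 400-1 repeated values most, with 1569 and 2052 distinct values against 2603 to 5556 elsewhere. Without these 2, a check chosen after the data were seen, Hsp90b1 (adjusted p = 0.107) and Hspe1 (adjusted p = 0.171) did not pass and Hspd1 went from -2.72 to -1.72 (adjusted p = 0.0395). Of the probe sets called lower that are named further on, 1441827_x_at of Hsp90aa1 (adjusted p = 0.0765), 1438040_a_at of Hsp90b1 (adjusted p = 0.0511), 1427464_s_at of Hspa5 (adjusted p = 0.0736) and 1435194_at of Hspa4 (adjusted p = 0.113) did not pass there either. The strains also differed in the control probe sets of Actb, in which the signal near the 3′ end was above that near the 5′ end by 0.868 ± 1.31 (SD, n = 5) for Balb/c arrays and by 3.87 ± 1.25 (SD, n = 14) for C57BL/6 arrays (two-sided exact permutation p = 0.000688 over 11628 splits, 0.00138 after Benjamini-Hochberg over 2 controls). For Gapdh these were 3.14 ± 1.42 and 3.27 ± 0.622 (exact permutation p = 0.77). In Actb, C57BL/6 200-1 was at 1.17 and C57BL/6 400-1 at 1.65, inside the Balb/c range of -0.695 to 2.27. In Gapdh, C57BL/6 200-1 was at 5.0, the highest of its strain and above the Balb/c range of 1.48 to 4.72, and C57BL/6 400-1 was at 3.15. The part of these control values in the chaperone results was not tested.

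**Figure D1:**
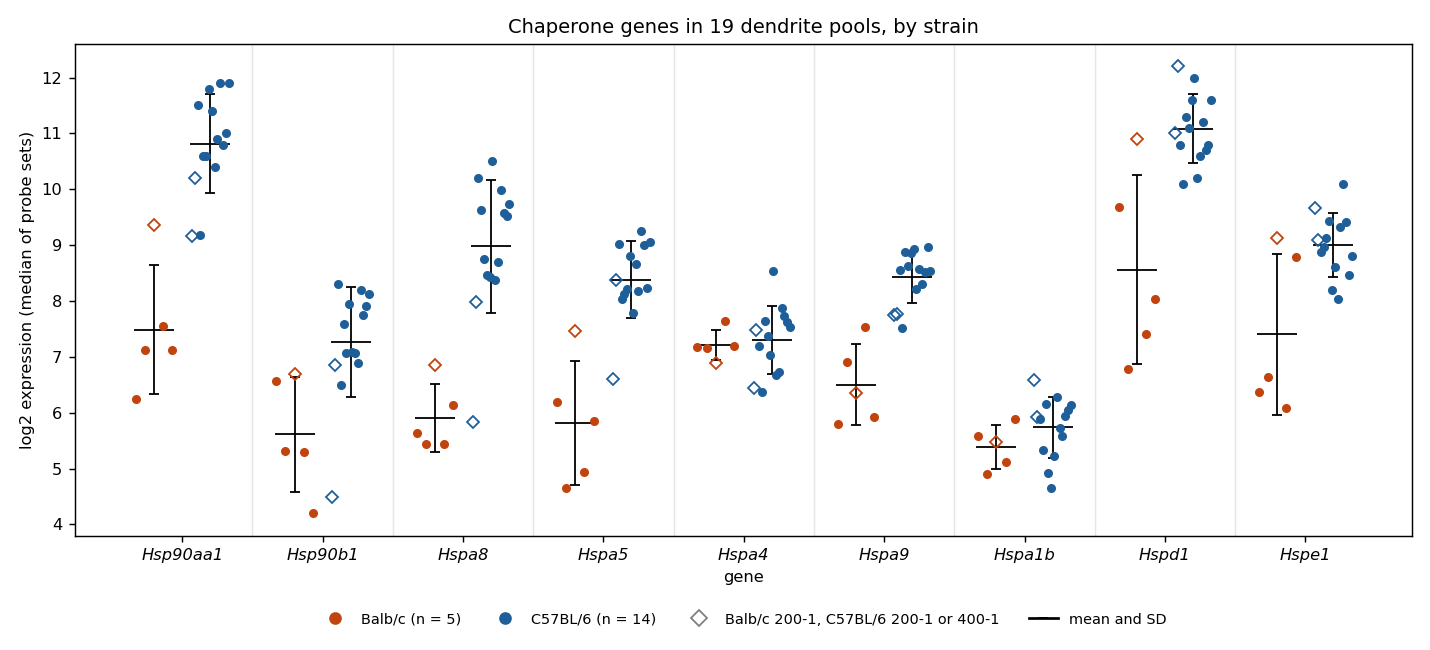
Level of each of the 9 chaperone genes (median of its probe sets, log2 scale) in each array, Balb/c in orange and C57BL/6 in blue, with bars for the mean and SD and open diamonds for Balb/c 200-1, C57BL/6 200-1 and C57BL/6 400-1. In Hsp90aa1, Hspa8, Hspa5, Hspa9 and Hspd1 most Balb/c arrays sit below the C57BL/6 arrays, while in Hspa4 and Hspa1b the strains lie over each other.

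Hsp90aa1, the stress-inducible cytosolic Hsp90, had the largest difference of the 9 genes. Its level was 6.24, 7.13, 9.36, 7.56 and 7.13 in Balb/c 100-1, 100-2, 200-1, 400-1 and 400-2, and in C57BL/6 it ran from 9.17 through a median of 10.9 to 11.9. Only Balb/c 200-1 reached the C57BL/6 range, where it lay above 2 of the 14 arrays. The means were 7.49 ± 1.15 (SD, n = 5) and 10.8 ± 0.877 (SD, n = 14), a difference of -3.53 ± 0.451 (SE, limma adjusted p = 8.57e-05). The probe set behind the gene value changed between arrays. For Balb/c 100-2 it was 1433251_at, while in 1438902_a_at that array was at 10.5, inside the C57BL/6 range of 9.17 to 12.

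The gene value of Hsp90aa1 joins 5 probe sets that did not move alike. Among all 29 probe sets, 14 were lower and 1 was higher (limma adjusted p under 0.05 over 45037 probe sets), where 11.6% of all probe sets were lower and 21.3% higher. Probe set differences are relative to the median probe set, which was 0.252 higher in Balb/c. For Hsp90aa1, 1437497_a_at (-3.94 ± 0.684, adjusted p = 0.000675), 1438902_a_at (-3.13 ± 0.573, adjusted p = 0.0011) and 1441827_x_at (-1.78 ± 0.368, adjusted p = 0.00402) were lower. The probe set 1426645_at was at 12, 11.5, 11.7, 11.8 and 11.8 in the Balb/c arrays and ran from 11.6 through a median of 12.2 to 12.8 in C57BL/6, a difference of -0.707 ± 0.244 (adjusted p = 0.153). It varied least of the 5, with an SD of 0.159 in Balb/c, and both strains lay within a narrow band. Taken as the gene's value because it had the highest mean, it gave -0.635 with adjusted p = 0.138, so that the call of Hsp90aa1 rests on the median of the probe sets. Probe set 1433251_at was at 8.4 ± 1.29 (SD, n = 5) and 7.38 ± 1.04 (SD, n = 14), a difference of 0.776 ± 0.526 (adjusted p = 0.135). In 1437497_a_at, Balb/c 200-1 at 12.1 stood above the other 4 Balb/c arrays, which lay between 5.96 and 6.83.

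Hspa8 (Hsc70), the constitutive cytosolic Hsp70, was at 5.63, 5.44, 6.86, 5.44 and 6.14 in the Balb/c arrays in the same order. In C57BL/6 it ran from 5.83 through a median of 9.14 to 10.5. The C57BL/6 arrays above the lowest began at 7.99, and the only array in the Balb/c range was C57BL/6 200-1. The difference was -3.29 ± 0.507 (SE), with means of 5.9 ± 0.605 (SD, n = 5) and 8.98 ± 1.19 (SD, n = 14) and limma adjusted p = 0.000295. Of its 4 probe sets, 3 were lower by like amounts, 1420623_x_at at -4.26 ± 0.598, 1420622_a_at at -4.12 ± 0.57 and 1455789_x_at at -3.7 ± 0.681, with adjusted p of 0.000147, 0.000131 and 0.00105. In 1455789_x_at the Balb/c arrays were spread from 6.88 to 14 and C57BL/6 lay between 12.2 and 14.5, and without Balb/c 100-2 and 400-1 the difference was -1.87 (adjusted p = 0.0469). The fourth, 1431182_at, was at 6.18 ± 0.899 and 5.74 ± 0.57, a difference of 0.186 ± 0.345 (adjusted p = 0.339), below the highest array median of 6.95 in both strains. The gene value averages the probe sets in the middle of each array. In C57BL/6 these were 1420622_a_at and 1420623_x_at, but 1431182_at was among them in every Balb/c array other than 200-1. The difference and overlap of the gene value therefore in part compare unlike probe sets. Probe sets whose identifier ends in _s_at or _x_at can match several transcripts, and without them Hspa8 was at -1.95 (adjusted p = 0.00183).

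Hspa4 (Apg-2), a member of the Hsp110 branch that acts as an exchange factor for Hsp70, was at 7.18, 7.16, 6.89, 7.64 and 7.2 in Balb/c. It ran from 6.37 through a median of 7.43 to 8.54 in C57BL/6, so all Balb/c arrays lay inside the C57BL/6 range. The difference of the gene value was -0.305 ± 0.287 (limma adjusted p = 0.835). That value stood between probe sets that were called in opposite directions. Probe set 1435194_at was at 10.8, 3.76, 12.1, 4.61 and 10.5 in Balb/c and from 11.1 to 12.7 in C57BL/6, a difference of -3.98 ± 0.89 (adjusted p = 0.00381). Its 2 lowest values were in Balb/c 100-2 and 400-1, the arrays whose columns repeated values most, and without them its difference was -1.18 (adjusted p = 0.113). Probe set 1416147_at was the only probe set of the 29 called higher, at 7.54, 8.55, 7.5, 8.57 and 7.52 in Balb/c and from 5.12 through a median of 5.97 to 7.78 in C57BL/6. No Balb/c array was under 7.5, where the C57BL/6 mean was 6.13, and the difference was 1.55 ± 0.354 (adjusted p = 0.000999). The other probe sets, 1416146_at (-1.1 ± 0.439, adjusted p = 0.14) and 1440575_at (0.018 ± 0.426, adjusted p = 0.651), did not pass. With the probe set of highest mean in place of the median, Hspa4 was at -3.9 (adjusted p = 0.00402).

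**Figure D2:**
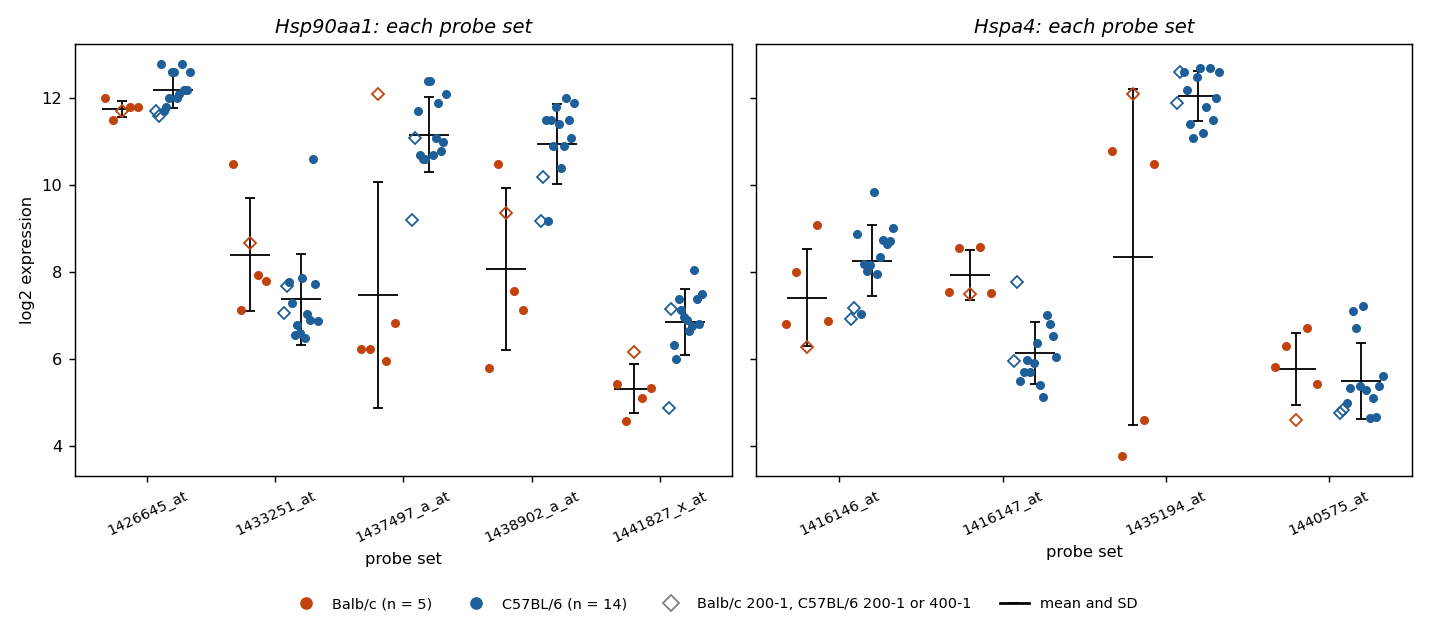
Level of each probe set of Hsp90aa1 (left) and Hspa4 (right) in each array on the log2 scale, Balb/c in orange and C57BL/6 in blue, with bars for the mean and SD and open diamonds for Balb/c 200-1, C57BL/6 200-1 and C57BL/6 400-1. In Hspa4, 1435194_at falls to 3.76 and 4.61 in Balb/c arrays while 1416147_at lies at 7.5 or above in all of them. Levels of different probe sets are not comparable with each other.

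Hspa1b, a heat-inducible cytosolic Hsp70, was at 5.58, 4.9, 5.47, 5.11 and 5.88 in Balb/c and ran from 4.65 through a median of 5.91 to 6.59 in C57BL/6. Of the 14 C57BL/6 arrays, 8 lay above every Balb/c array and 1 (200-2) below all of them, and the difference of -0.573 ± 0.275 did not pass (limma adjusted p = 0.328). None of its 3 probe sets passed (adjusted p from 0.238 to 0.846). Every gene value lay below 6.62, the lowest array median, in the dim part of every array, and no measure of background was analysed here. Its near copy Hspa1a, which is not a listed gene, had 1 probe set and had a Balb/c mean of 9.37 ± 0.41 (SD, n = 5) and a C57BL/6 mean of 7.96 ± 1.22 (SD, n = 14). Its difference was 1.19 ± 0.508 (limma adjusted p = 0.037). In C57BL/6 it ran from 5.7 to 9.5. Probes for such near copies can share target, and the values of the pair are therefore uncertain. With the number format of the data columns as a block, Hspa1a had adjusted p = 0.227.

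In the endoplasmic reticulum, Hspa5 (BiP), the Hsp70 that also holds the stress sensors of that compartment inactive, was at 6.19, 4.66, 7.46, 4.93 and 5.86 in Balb/c. In C57BL/6 it ran from 6.6 through a median of 8.3 to 9.25, and C57BL/6 200-1 was the only C57BL/6 array below the highest Balb/c array. The difference was -2.78 ± 0.391 (SE), with means of 5.82 ± 1.11 and 8.38 ± 0.684 and limma adjusted p = 0.00018. Probe set 1416064_a_at had -4.21 ± 0.549 (adjusted p = 8.17e-05), the second-largest difference of the 29, and 1427464_s_at had -2.88 ± 0.582 (adjusted p = 0.0023). The third, 1447824_x_at, lay at 8.9 ± 0.22 and 8.49 ± 0.427, a difference of 0.159 ± 0.246 (adjusted p = 0.203). The gene value of Hspa5 is a median taken in each array. It was the value of 1447824_x_at in most C57BL/6 arrays and that of 1416064_a_at in most Balb/c arrays. The difference and overlap of the gene value therefore in part compare unlike probe sets.

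Hsp90b1 (Grp94), the Hsp90 of the endoplasmic reticulum, was at 6.56, 5.32, 6.7, 5.29 and 4.2 in Balb/c. It ran from 4.5 through a median of 7.34 to 8.3 in C57BL/6, with the lowest value again in C57BL/6 200-1. The means were 5.62 ± 1.03 and 7.27 ± 0.984 and the difference -1.87 ± 0.471 (limma adjusted p = 0.0109), the weakest call of the 7 genes. It did not pass without Balb/c 400-2 (adjusted p = 0.0502), nor with the number format of the columns as a block (-1.05, adjusted p = 0.354). Of its probe sets, 1438040_a_at was lower (-2.55 ± 0.597, adjusted p = 0.00649) and 1415889_a_at had -1.26 ± 0.486 (adjusted p = 0.111).

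Among the mitochondrial chaperones, Hspa9 (mortalin), the Hsp70 that pulls precursors through the inner membrane, was at 5.79, 6.9, 6.36, 7.54 and 5.93 in Balb/c. It ran from 7.51 through a median of 8.54 to 8.97 in C57BL/6, so that only Balb/c 400-1 reached the lowest C57BL/6 array. The difference was -2.14 ± 0.285, with means of 6.5 ± 0.722 and 8.43 ± 0.467 and limma adjusted p = 0.000151. Of 5 probe sets, 1418503_at (-3.66 ± 0.489, adjusted p = 0.000109) and 1418504_at (-3.43 ± 0.432, adjusted p = 7.36e-05) were lower. The others were 1431274_a_at at -1.68 (adjusted p = 0.0714), 1453811_at at -0.00451 (adjusted p = 0.591) and 1447728_x_at at 0.18 (adjusted p = 0.378). The probe set behind the gene value changed between arrays. It was 1453811_at for the 7.54 of Balb/c 400-1 and 1447728_x_at for the lowest C57BL/6 value of 7.51. In 1418503_at and 1418504_at, Balb/c 400-1 was at 4.39 and 5.54, below every C57BL/6 array. With the probe set of highest mean, 1447728_x_at, in place of the median, Hspa9 turned to 0.252 (adjusted p = 0.373). Without _s_at and _x_at probe sets, Hspa9 was at -2.63 (adjusted p = 0.000179).

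Hspd1 (Hsp60), the barrel of the mitochondrial chaperonin, had 1 probe set, at 9.68, 6.79, 10.9, 7.41 and 8.03 in Balb/c. It ran from 10.1 through a median of 11 to 12.2 in C57BL/6, and 4 of 5 Balb/c arrays lay below every C57BL/6 array. The means were 8.57 ± 1.7 (SD, n = 5) and 11.1 ± 0.623 (SD, n = 14), and the difference was -2.72 ± 0.468 (limma adjusted p = 0.000727).

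Hspe1 (Hsp10), the lid of that chaperonin, was at 6.37, 6.64, 9.13, 6.09 and 8.79 in Balb/c, and ran from 8.04 through a median of 9.03 to 10.1 in C57BL/6. Balb/c 200-1 and 400-2 lay among the C57BL/6 arrays and the other 3 below all of them. The means were 7.4 ± 1.44 and 9.01 ± 0.568, with a difference of -1.82 ± 0.412 (limma adjusted p = 0.00589) that did not pass with the number format blocked (-1.88, adjusted p = 0.0788). The 2 probe sets parted. In 1450668_s_at the Balb/c arrays were at 5.16, 6.74, 8.74, 5.66 and 8.15, and C57BL/6 ran from 9.24 through a median of 10.3 to 11.4. That was 1 of 29 probe sets in which every Balb/c array lay below every C57BL/6 array, against 0.446% of all probe sets, and its difference was -3.63 ± 0.454 (adjusted p = 6.55e-05). In 1422579_at the Balb/c arrays ran from 6.53 to 9.52 and C57BL/6 from 5.65 to 8.97, a difference of -0.0808 ± 0.586 (adjusted p = 0.844). Without probe sets whose identifier ends in _s_at or _x_at, which can match several transcripts, only the latter was left and Hspe1 was at -0.0666 (adjusted p = 0.841).

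**Figure D3:**
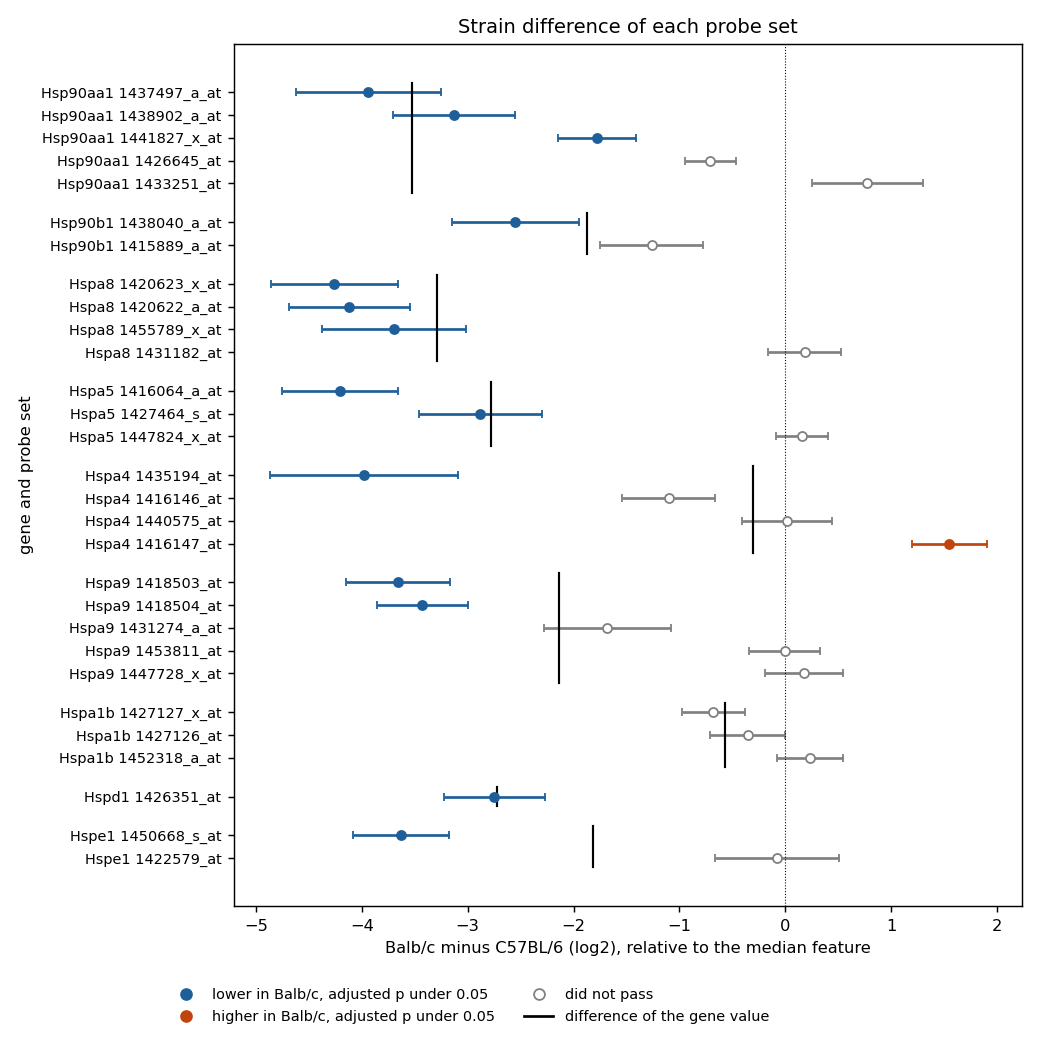
Difference between the strains (Balb/c minus C57BL/6, log2, relative to the median probe set) of each of the 29 probe sets, with bars for the SE, filled where the adjusted p is under 0.05, and a black line at the difference of the gene value, which is relative to the median gene. Of the 9 genes, 8 have at least 1 probe set that is lower, and the probe sets of a gene spread from -3.98 to 1.55 in Hspa4.

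At the level of probe sets, 8 of the 9 genes thus had at least 1 that was lower, 1 gene (Hspa4) also had 1 that was higher, and only Hspd1, with its single probe set, had all of them lower. Probe sets of a gene share arrays and RNA and are no replicates of each other. The SD was larger in Balb/c than in C57BL/6 in 6 of the 9 genes. With a variance for each strain, the same 7 genes passed. At an adjusted p of 0.001, the threshold in the methods, the count went from 5 to 3. By the methods' t-test 7 of 9 passed at 0.05 and 2 at 0.001. Over all 18193 genes, the count at 0.001 went from 700 in the main fit to 182 with a variance for each strain. By the methods' t-test it was 76.

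The columns of the data came in 2 number formats, one that holds the 5 Balb/c arrays and 4 C57BL/6 arrays (100-1, 100-2, 200-1 and 400-1) and one that holds the other 10 C57BL/6 arrays. With this format as a block, 5 of the 7 genes passed (limma adjusted p under 0.05), Hsp90aa1 at -2.66 (adjusted p = 0.025), Hspa8 at -2.63 (adjusted p = 0.0459), Hspa5 at -2.32 (adjusted p = 0.034), Hspa9 at -1.52 (adjusted p = 0.0355) and Hspd1 at -2.59 (adjusted p = 0.043). Within the 9 arrays of the first format the estimates were the same, since the second format holds 1 strain, and 0 of 9 genes passed, as did 0 of 18193 genes in all. There, 6 of the 9 (all of the 7 but Hsp90b1) had an unadjusted p under 0.05, with an adjusted p of 0.329, among 2367 genes in all. Over all 18193 genes, 350 passed with the format as a block, 232 lower and 118 higher, against 5910 without it. What the format stands for was not tested.

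Pool size was the other variable of the design. None of the 9 genes passed for a change with the number of dendrites, and 0 had an unadjusted p under 0.05. The slope per doubling, with strain in the fit, ran from -0.022 ± 0.257 (SE) in Hsp90b1 to 0.341 ± 0.235 in Hsp90aa1 as fitted, with limma adjusted p from 0.959 to 0.999. It was called in 0% of all genes, 850 of which had an unadjusted p under 0.05. In C57BL/6, Hsp90aa1 was at 10.5 ± 0.948 (SD, n = 4), 10.7 ± 1.01 (SD, n = 5) and 11.1 ± 0.726 (SD, n = 5) in pools of 100, 200 and 400 dendrites, and Hspa8 was at 9.25 ± 0.778, 8.38 ± 1.68 and 9.36 ± 0.788. The Balb/c means of Hsp90aa1 were 6.69 and 7.35 in pools of 100 and 400, with the single pool of 200 at 9.36. In the pools of 100 dendrites alone 5 of the 9 genes passed for strain, and in the pools of 400 alone 6 did. Hsp90b1 (adjusted p = 0.136) and Hspd1 (adjusted p = 0.0566) did not pass in the former, and Hspe1 (adjusted p = 0.0911) did not in the latter. Over all 18193 genes, 1027 were lower and 1058 higher in pools of 100, and 1336 lower and 1757 higher in pools of 400. The slope differed between the strains for 0% of genes (adjusted p = 1 for all 9), 690 of which had an unadjusted p under 0.05, and with 1 Balb/c pool of 200 dendrites this was a weak test.

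**Figure D4:**
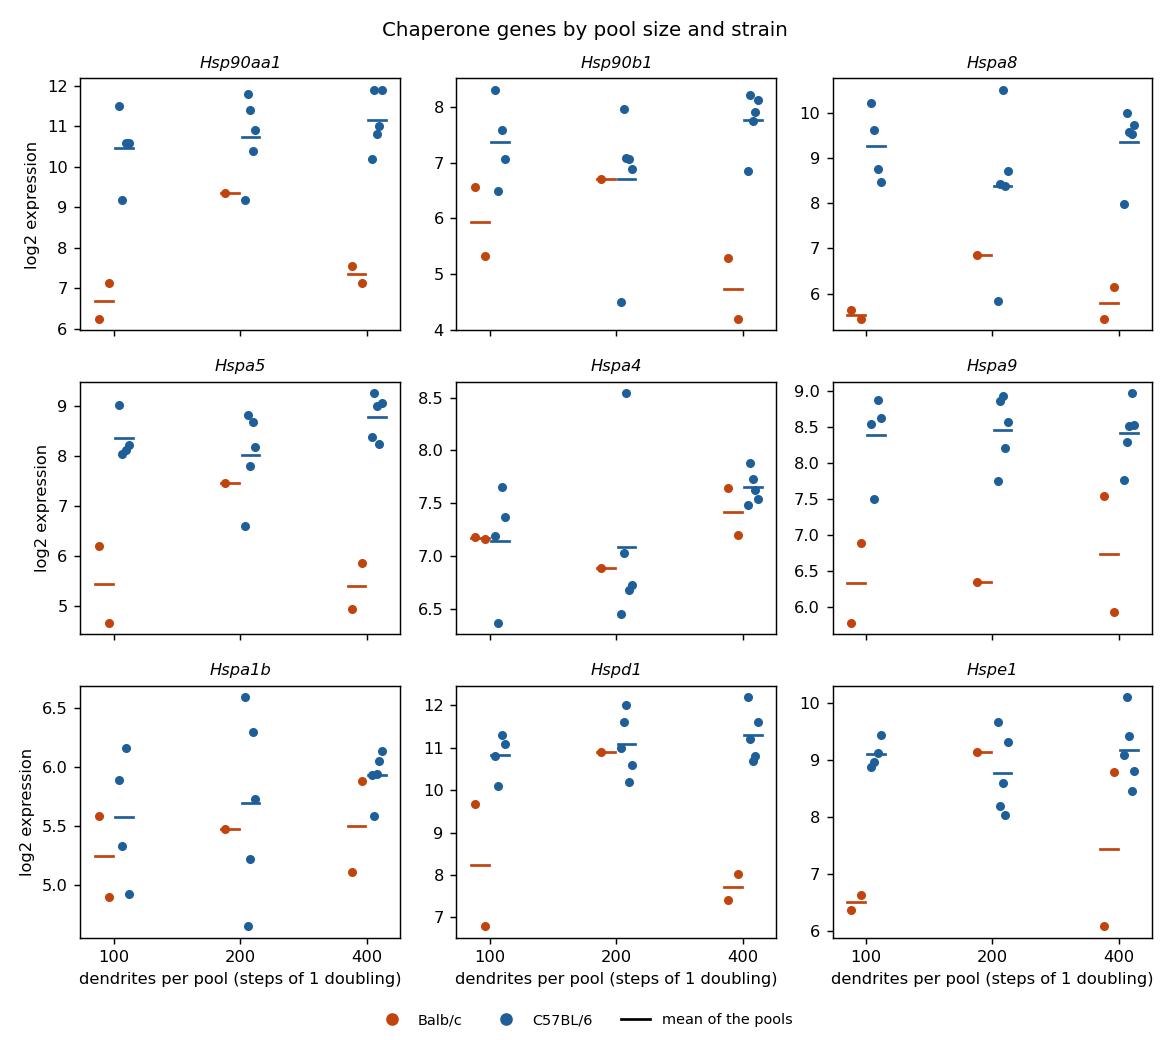
Level of each gene (log2, 1 panel per gene with its own axis) against dendrites per pool, placed by doublings, with points for arrays and short lines for the mean of the pools, Balb/c in orange and C57BL/6 in blue. The single Balb/c pool of 200 dendrites is the highest Balb/c array in Hsp90aa1, Hsp90b1, Hspa8, Hspa5, Hspd1 and Hspe1.

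The other genes of these families were called in both directions, at counts near the shares of all genes. Among 11 further Hsp70 and Hsp90 family genes, 1 fell in Balb/c, 3 rose and 7 were not called, with a median difference of 0.108. Over all genes, 11.4% were lower and 21.1% higher, and the counts of each list below stand against the same shares. The 3 with the smallest p were Hspa12b, a distant Hsp70 relative of endothelial cells (2.22 ± 0.525, limma adjusted p = 0.00186), Hyou1 (Grp170), an exchange factor for BiP (0.968 ± 0.279, adjusted p = 0.00349), and Hspa14, a ribosome-associated Hsp70 (-1.19 ± 0.28, adjusted p = 0.0114). Trap1, the mitochondrial Hsp90, was at 6.01 ± 0.354 and 6.29 ± 0.361, a difference of -0.492 ± 0.221 (adjusted p = 0.346). None of the 4 genes called here passed with the number format as a block. Over all genes, 350 passed with that block against 5910 without it, and the block counts of each list below stand against these.

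Of the genes that drive the Hsp70 cycle, 12 exchange factors and cofactors, 5 were lower, 1 was higher and 6 did not pass, with a median of -0.457. Grpel1, the exchange factor of mitochondrial Hsp70, was lower by the most in this list (-2.33 ± 0.399, limma adjusted p = 0.000765). Bag1, an exchange factor of cytosolic Hsp70, was also lower (-1.97 ± 0.475, adjusted p = 0.00817), and Bag4 was higher (0.589 ± 0.256, adjusted p = 0.02). With the number format as a block, 0 of these 6 calls passed.

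The Hsp90 co-chaperones were split the other way. Of 15 measured, 2 were lower, 7 were higher and 6 did not pass, with a median of 0.203. Sugt1, an adaptor of Hsp90 for other clients, was lower (-1.7 ± 0.275, limma adjusted p = 0.000678), while Tomm34, which binds Hsp70 and Hsp90 on the way of mitochondrial precursors (1.37 ± 0.34, adjusted p = 0.00184), and Cdc37, the adaptor for kinases (0.857 ± 0.267, adjusted p = 0.00486), were higher. Stip1 (Hop), which hands clients from Hsp70 to Hsp90, was at 7.41 ± 0.356 and 7.19 ± 0.917, a difference of 0.000827 ± 0.397 (adjusted p = 0.699). With the number format as a block, 0 of the 9 calls passed.

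The list most like the listed chaperones was the cytosolic chaperonin, which folds actin and tubulin, with prefoldin, which brings it clients. Among its 14 genes, 9 fell in Balb/c, 0 rose and 5 were not called, with a median of -1.72. The chaperonin subunits Tcp1 (-3.64 ± 0.491, limma adjusted p = 0.000129), Cct2 (-3.62 ± 0.608, adjusted p = 0.000524) and Cct7 (-2.32 ± 0.377, adjusted p = 0.000544) had the smallest p. Other subunits did not pass, with Cct3 at -0.312, Cct5 at -0.298 and Cct8 at -0.129 (adjusted p from 0.81 to 0.875). With the number format as a block, Tcp1 (adjusted p = 0.0336) and Cct7 (adjusted p = 0.0499) passed and the other 7 did not.

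Of 18 genes of folding in the endoplasmic reticulum and of the unfolded protein response, 4 were lower, 3 higher and 11 did not pass, with a median of -0.235, beside the lower values of Hspa5 and Hsp90b1. Canx, a lectin chaperone, was at -1.35 ± 0.247 (limma adjusted p = 0.00199) but at 0.308 with its probe set of highest mean. Xbp1, a transcription factor of the unfolded protein response, was at -1.56 ± 0.337 (adjusted p = 0.005) and Manf, a protein induced by stress in that compartment, at -1.28 ± 0.277 (adjusted p = 0.00628). With the number format as a block, 1 of the 7, Canx (adjusted p = 0.0435), passed.

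The small heat shock proteins, which hold unfolded proteins without ATP, had 0 of 8 lower, 2 higher, Hspb3 (1.24 ± 0.453, limma adjusted p = 0.0181) and Cryaa (0.642 ± 0.252, adjusted p = 0.013), and 6 not passed. These counts were near the shares of all genes, 11.4% lower and 21.1% higher. Hspb7 had the third-smallest p of the list, with 0.887 ± 0.449 and adjusted p = 0.0628. Of 3 genes of the heat shock factors and their regulators, Hsbp1, which binds and restrains heat shock factor, was lower (-1.96 ± 0.37, adjusted p = 0.00168), Hsf4 was higher (0.588 ± 0.255, adjusted p = 0.0195) and Hsf2 had 0.101 ± 0.245 (adjusted p = 0.328). None of these 4 calls passed with the number format as a block. The differences between the lists were not tested.

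**Figure D5:**
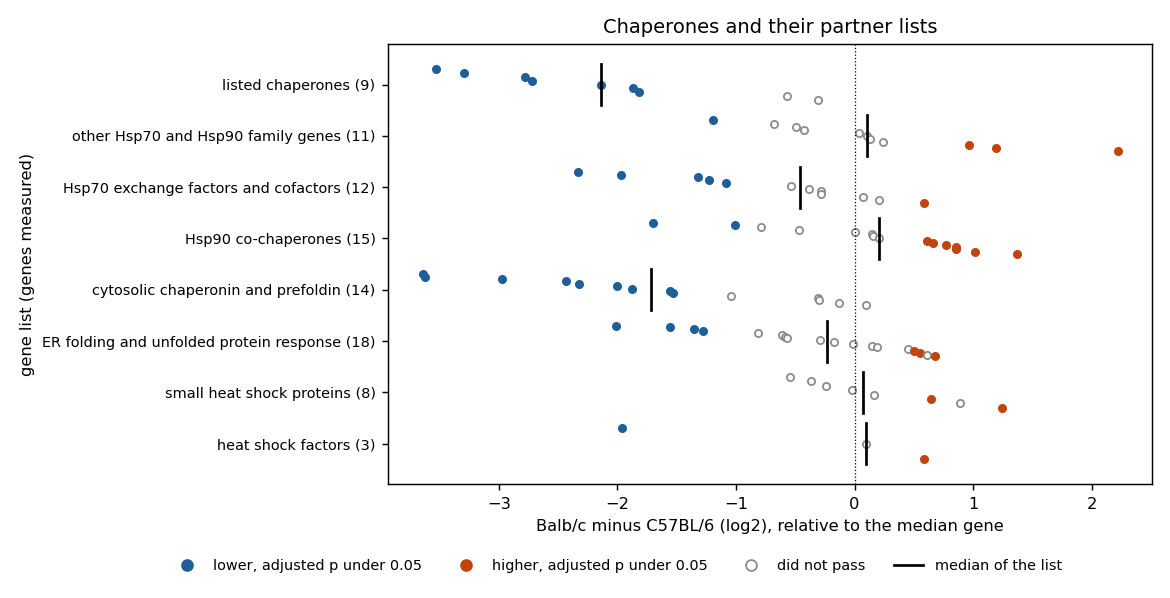
Difference between the strains (Balb/c minus C57BL/6, log2, relative to the median gene) of each measured gene in the listed chaperones and 7 partner lists, filled where the adjusted p is under 0.05, with a black line at the median of the list. The listed chaperones (median -2.14) and the cytosolic chaperonin with prefoldin (median -1.72) lie to the left, and the Hsp90 co-chaperones (median 0.203) lie around and to the right of 0.

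Markers of cell types were counted in the same fit, in which 11.4% of all genes were lower in Balb/c and 21.1% higher. Of 11 neuron and dendrite markers 5 were lower, 1 was higher and 5 did not pass, with list means of 6.54 to 8.11 in the Balb/c arrays and 7.7 to 8.57 in the C57BL/6 arrays. Map2, a defining protein of dendrites, was at 6.72 ± 0.898 (SD, n = 5) and 7.95 ± 0.327 (SD, n = 14), a difference of -1.45 ± 0.278 (limma adjusted p = 0.00258) that was -0.0953 with its probe set of highest mean. Slc17a7, the vesicular glutamate transporter of pyramidal neurons, was at 6.74 ± 0.695 and 6.36 ± 0.519, a difference of 0.162 ± 0.295 (adjusted p = 0.333). Among other neuron markers, Neurod6, a transcription factor of pyramidal neurons, was at 6.97 and 9.2 (-2.45 ± 0.669, adjusted p = 0.0146), Stmn2, a tubulin regulator of neurons, at 6.51 and 11.2 (-4.9 ± 0.632, adjusted p = 8.36e-05), and Camk2a, a kinase of excitatory neurons, at 7.65 and 6.95 (0.475 ± 0.214, adjusted p = 0.0174). Of 10 microglia markers 3 were higher and 0 lower, with list means of 7.19 to 7.53 in Balb/c and 6.52 to 7.38 in C57BL/6, and of 9 oligodendrocyte markers 4 were higher and 0 lower, with 6.56 to 7.13 and 6.4 to 6.82. Of 10 astrocyte markers 2 were lower and 0 higher (6.31 to 7.74 and 6.44 to 7.61), of 8 interneuron markers 2 lower and 1 higher (7.42 to 7.88 and 7.52 to 8.51), and of 6 endothelial markers 0 lower and 2 higher (6.02 to 8.07 and 6.45 to 7.47). With the number format as a block, 1 of the 6 neuron calls passed (Stmn2, adjusted p = 0.0234, while Map2 had adjusted p = 0.115), 1 of the 3 microglia calls, 1 of the 3 interneuron calls, and 0 of the 2 astrocyte, 4 oligodendrocyte and 2 endothelial calls. No list was at 0, as the scale has no zero, and no marker's background was measured. Their part in the chaperone differences was not tested.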

How the data were processed

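Per the labels and the study's methods, the authors turned Affymetrix scans into log2 expression values with RMA (2.0 in the processing notes of the submitters) and kept, for each probe set, an upper-decile summary of its probes. The methods also name a median centring and a scaling of ranges. The deposited array medians differed (6.62 to 6.95), so that this centring is not in them. That the scale is log2 was inferred from values of 2.12 to 16. Of 45101 probe sets, 64 were controls, and in the platform annotation 34945 had 1 symbol, 932 several and 9160 none. Gene values are medians over the probe sets of 1 symbol, taken in each array, so the probe set behind a value can differ between arrays. The columns had up to 14 decimals (9 columns) or up to 9 (10 columns), called the number format here. The number of arrays limits the precision.

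The strain comparison was a limma fit (3.58.1, lmFit and eBayes, in R 4.3.3) of strain alone on all 19 arrays. Pool size and its interaction with strain were added in separate fits. P-values were adjusted by Benjamini-Hochberg over all genes or all probe sets, with 0.05 as the threshold, and the scripts were tested on simulated data. Every listed gene was named with each probe set, and of each partner list the counts and the 3 genes with the smallest p were given. Trap1, Stip1, Cct3, Cct5, Cct8, Hspa1a, Map2, Neurod6, Stmn2, Camk2a and Slc17a7 were added after their values were seen. Actb and Gapdh control probe sets were compared by exact permutation of the arrays. The listed genes and the gene lists were chosen with earlier results of these data known. Alternatives changed the normalisation, the choice of probe sets, a filter on dim features, the pool sizes, the test (the methods' t-test among them), blocks and the arrays used. Coordinates are those of RefSeq promoter windows alone.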

Additional observations from a re-analysis of the deposited data

Results flagged for a closer look

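A single array stood apart from the rest of its group, by the ratio of its gap to the whole range against Dixon's critical value, in 16 of 152 group checks on 9 genes and 29 probe sets (10.5%), where chance flags about 1 in 20. The checks are not independent, since probe sets of a gene share arrays. C57BL/6 400-1 was the lowest of its group of 5 for Hspa8 (7.99, next 9.52, ratio 0.767), for probe sets 1420623_x_at of Hspa8 (8.05, next 9.25, ratio 0.718), 1416064_a_at of Hspa5 (8.37, next 10.2, ratio 0.746), 1416146_at of Hspa4 (7.18, next 8.64, ratio 0.799) and 1431274_a_at of Hspa9 (4.53, next 8.3, ratio 0.804). C57BL/6 200-1 was the lowest of its group of 5 for 1441827_x_at of Hsp90aa1 (4.87, next 6.65, ratio 0.853), 1438040_a_at of Hsp90b1 (5.28, next 9.12, ratio 0.81), 1427464_s_at of Hspa5 (5.18, next 7.3, ratio 0.83) and 1418504_at of Hspa9 (6.09, next 8.15, ratio 0.726). Balb/c 200-1 was the highest of the 5 Balb/c arrays for 1437497_a_at of Hsp90aa1 (12.1, next 6.83, ratio 0.856) and 1420623_x_at of Hspa8 (7.32, next 4.81, ratio 0.728). These 11 flags were on 3 arrays with a high mean correlation with the other strain over all genes, as Balb/c 400-2, which had none, also had.

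The other 5 were on other C57BL/6 arrays. C57BL/6 200-3 was the highest of its group for Hspa4 (8.54, next 7.03, ratio 0.723) and for its probe set 1440575_at (7.23, next 5.38, ratio 0.716). C57BL/6 400-3 was the highest for 1433251_at of Hsp90aa1 (10.6, next 7.74, ratio 0.766), C57BL/6 100-1 the highest of 4 for 1437497_a_at of Hsp90aa1 (11.7, next 10.7, ratio 0.909), and C57BL/6 200-5 the highest for 1453811_at of Hspa9 (7.07, next 6.45, ratio 0.728). The cause of these flags was not tested.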

How the results depend on the processing

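Of the 9 genes, 7 stayed lower under both other normalisations, with pool size in the fit, a variance per strain and the methods' t-test, and in each fit without 1 array (range 6 to 7), where only Hsp90b1 was lost, without Balb/c 400-2. The choice of probe sets changed which genes passed. With the probe set of highest mean 6 were lower, as Hsp90aa1 and Hspa9 did not pass and Hspa4 did. Without _s_at and _x_at probe sets 6 were lower, as Hspe1 did not pass. The filter on dim genes kept 7 genes, of which 6 were lower, and Hsp90b1 was not tested there. Among all 9097 genes that this filter kept, 18.3% were lower and 19.1% higher. The count was 0 with only the first number format and 0 with a replicate block (6 genes had an unadjusted p under 0.05, adjusted p from 0.175). Same-numbered pools did not deviate together (correlations from -0.189 to 0.0714), so the replicate numbers were not taken to pair arrays, and 0 of all genes were called under that block (3331 at an unadjusted p under 0.05 in limma). Of the probe sets, 14 were lower (14 to 16 without 1 array), 7 with the number format as a block, 0 with its first format alone and 0 with the replicate block (13 of 29 at an unadjusted p under 0.05 in either). Over all 45037 probe sets, 5205 were lower, and 596 with the format block. With the first format alone and with the replicate block 0 were called, and 5819 and 8169 had an unadjusted p under 0.05 in limma. The 1 higher probe set went to 0 with the filter on dim probe sets, in pools of 400 dendrites, with the replicate block, the format block and the first format alone, and to 2 (range 1 to 2) without C57BL/6 400-3, where 1433251_at of Hsp90aa1 passed. Quantile normalisation moved the calls over all genes from 2073 lower and 3837 higher to 2522 and 2763, and centring with range scaling to 2651 and 2590. The count of genes called was 350 with the format block, 2062 without Balb/c 100-2 and 400-1, 2085 in pools of 100, 3093 in pools of 400, and 0 with the first format or the replicate block, against 5910.

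Signs turned, always with adjusted p over 0.05 on both sides save for Hspa9 as a gene, as follows. Hspa9 was at 0.252 and Hspa1b at 0.303 with the probe set of highest mean, and Hspa4 at 0.211 with the format block and with the first format alone. Probe set 1440575_at of Hspa4 was at -0.0113 with quantile normalisation, -0.0572 with pool size, -0.21 in pools of 100 and -0.449 without Balb/c 100-2 and 400-1, and ran from -0.203 to 0.274 without 1 array. Probe set 1422579_at of Hspe1 was at 0.0723 with the filter on dim probe sets and 0.869 without Balb/c 100-2 and 400-1, and ran from -0.52 to 0.28. Probe set 1453811_at of Hspa9 was at 0.00119 with pool size, 0.468 in pools of 400, 0.251 with the replicate block and 0.231 with the format block or format alone, and ran from -0.278 to 0.293. Probe set 1431182_at of Hspa8 was at -0.636 in pools of 100, -0.0945 with the replicate block and -0.176 with the format block or format alone, and ran from -0.129 to 0.426. In pools of 400, 1433251_at of Hsp90aa1 was at -0.421 and 1447824_x_at of Hspa5 at -0.0906, and 1447728_x_at of Hspa9 ran from -0.172 to 0.529 without 1 array. The lowest slope with pool size of a listed gene was 0.00633 with quantile normalisation, 0.0673 with the filter on dim genes, 0.0112 in C57BL/6 alone and 0.0136 for 400 against 100 dendrites, and ran from -0.102 to 0.0703 without 1 array. The causes were not tested.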
